A study of Homo sapiens with 2 samples.

Results

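The alpha-like and beta-like globin genes of human cells were followed here in the HEL erythroleukemia cell line. The 10 genes were chosen by name out of 61806 genes in the count table, and not by a rule on their measured values. They are HBA1, HBA2, HBZ, HBM and HBQ1 of the alpha-like cluster, and HBB, HBD, HBE1, HBG1 and HBG2 of the beta-like cluster. Earlier results of these data were known when the choice was made. HEL cells, labelled wild type, were cultured for 24 h with L1 at 1 µM or with 0.5% DMSO, and the labels do not say whether the L1 culture also held DMSO. L1 is a derivative of 3,3′-diindolylmethane, a compound formed from cruciferous vegetables. RNA was captured on mRNA beads and sequenced from 1 library per condition, with 32556872 counts for DMSO and 27135647 for L1. HEL is an established line grown from the cells of a single patient with leukemia, so the values describe this line only.

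Haemoglobin is a tetramer of alpha-like and beta-like globin chains, each of which holds a heme group. The human alpha-like genes lie in the order HBZ, HBM, HBA2, HBA1 and HBQ1, and the beta-like genes in the order HBE1, HBG2, HBG1, HBD and HBB, which is close to the order of their use in development. HBZ and HBE1 encode the embryonic zeta and epsilon chains, HBG1 and HBG2 the fetal gamma chains, HBB and HBD the adult beta and delta chains, and HBA1 and HBA2 the alpha chain of fetal and adult life. HBM and HBQ1 encode the mu and theta chains, whose part in haemoglobin is not settled.

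Since each condition was sequenced once, variation between cultures is unknown. No test was run, no p-value is given, and none of the differences has a replicate check. Each ratio of L1 over DMSO was computed from counts scaled by edgeR's TMM method, and is given with an exact 95% interval (Clopper-Pearson) that covers counting error only. A gene was called at least 2-fold changed when its log2 ratio, with a prior count of 2 added, reached 1 in either direction, among genes that had 10 counts or more in either library.

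Several globin genes are close copies of each other, which limits how their reads can be told apart, and the stretches below show how close. In the coding sequences of GENCODE release 29 (GRCh38), without the stop codon, HBA1 and HBA2 were identical over all 426 bases. HBG1 and HBG2 differed at 2 of 441 bases, at positions 227 and 410 counted from 1 at the first base of the start codon. HBB and HBD were 93.0% identical, HBE1 and HBG2 83.4%, HBB and HBG2 76.6%, and HBA2 and HBZ 68.5%. The coding bases 197 to 257 of the beta-like genes, on chromosome 11, are shown first, with capitals at each base that is not the same as in HBG2:
HBG2: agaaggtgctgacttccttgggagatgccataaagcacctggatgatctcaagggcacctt
HBG1: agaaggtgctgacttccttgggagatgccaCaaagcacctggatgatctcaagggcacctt
HBE1: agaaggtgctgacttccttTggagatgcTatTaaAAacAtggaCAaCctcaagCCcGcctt
HBD: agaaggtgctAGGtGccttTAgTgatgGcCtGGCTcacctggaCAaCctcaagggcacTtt
HBB: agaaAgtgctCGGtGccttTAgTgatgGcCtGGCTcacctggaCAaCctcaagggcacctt

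The other base by which the gamma genes differ lies in coding bases 380 to 440, shown with the same use of capitals:
HBG2: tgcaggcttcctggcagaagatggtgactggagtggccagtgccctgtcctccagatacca
HBG1: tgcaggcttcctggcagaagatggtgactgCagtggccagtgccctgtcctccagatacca

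Coding bases 197 to 257 of the alpha-like genes, on chromosome 16, are shown with capitals at each base that is not the same as in HBA2. The stretch of HBA1 is the same as that of HBA2:
HBA2: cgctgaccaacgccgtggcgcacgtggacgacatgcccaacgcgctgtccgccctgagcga
HBQ1: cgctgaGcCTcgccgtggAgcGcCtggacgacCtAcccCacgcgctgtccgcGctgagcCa
HBZ: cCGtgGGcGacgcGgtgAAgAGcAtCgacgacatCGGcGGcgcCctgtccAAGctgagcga

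Of the 150-base words in the annotated transcripts, the length of 1 read, 78.5% of those of HBA1 also occur in HBA2, and 50.5% of those of HBG2 occur in another gene. The share was 19.6% for HBG1, whose annotation holds a transcript with a retained intron, 57.7% for HBE1 and 34.3% for HBZ. No 150-base word of HBB, HBD or HBQ1 is shared with another gene. How reads that match several genes were counted, and whether strand was used, is not given in the sources used here.

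Globin RNA was more abundant in the L1 library, with ratios over 2 for the alpha, A-gamma, epsilon and zeta genes. Summed over the 10 genes, DMSO held 34923 counts and L1 52613. That is 1091 and 1906 CPM (counts relative to the TMM-scaled library size), a ratio of 1.75 (95% interval 1.72 to 1.77). The sum leaves out ENSG00000284931, a readthrough gene that shares exon bases with HBG1 and HBG2 and had 11295 and 22951 counts. HBA1, HBA2, HBZ, HBE1 and HBG1 were each at least 2-fold higher in L1, while HBQ1, HBB, HBD and HBG2 were under 2-fold, and HBM had no count in either library. Thus 5 of the 9 genes with enough counts were called higher and 0 lower. With each near-identical pair summed as 1 gene the calls higher were 3, the summed HBA1 and HBA2, HBZ and HBE1. Over all 18123 genes at that minimum, 7.12% were called higher and 4.83% lower. Among the 12365 genes with at least 100 counts the shares were 3.13% higher and 2.92% lower, and 4 of the 8 globin genes at that depth were called higher and 0 lower. The median log2 ratio was 1.15 over the 9 globin genes and -0.0040 over all genes with at least 10 counts. With at least 100 counts it was 0.73 over the 8 globin genes and -0.028 over all genes. Both globin medians take HBA1, HBA2, HBG1 and HBG2 as separate genes. In bulk RNA, more cells that make globin and more globin RNA per cell cannot be told apart.

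**Figure D1:**
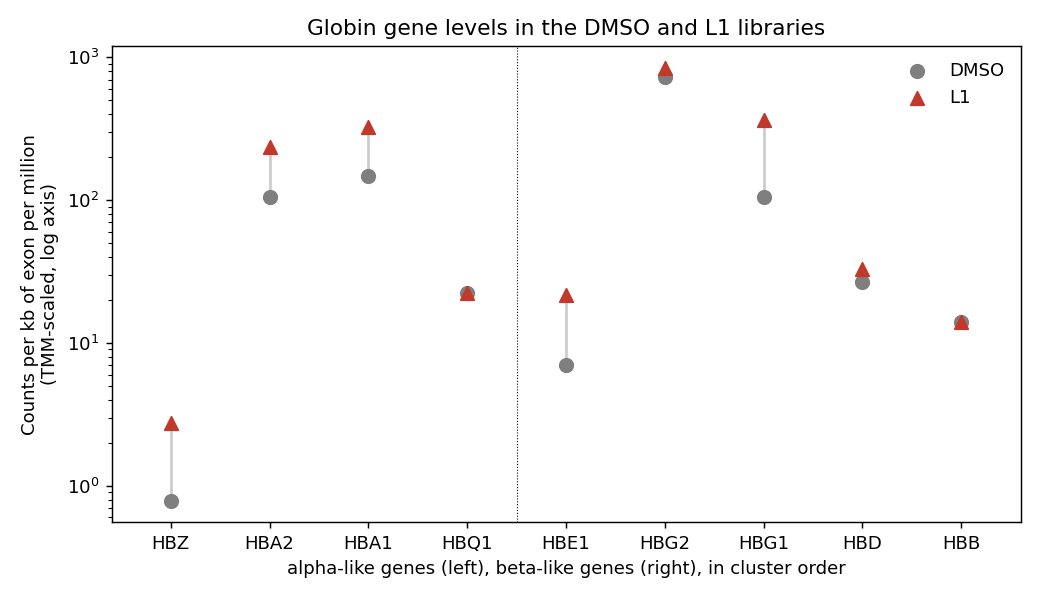
Level of each globin gene in the DMSO library (grey circles) and the L1 library (red triangles), as TMM-scaled CPM per kilobase of annotated exon on a log axis, with 1 library per condition. HBZ, HBA2, HBA1, HBE1 and HBG1 lie visibly higher with L1, HBG2 and HBD slightly higher, and the points of HBQ1 and HBB cover each other.

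The alpha chain genes HBA1 and HBA2 were higher in L1 by nearly the same factor. HBA1 (ENSG00000206172, chromosome 16 from 176680 to 177522, plus strand, GRCh38) had 3928 counts with DMSO and 7531 with L1, with a deposited FPKM (fragments per kilobase of gene, scaled to library size) of 148 and 329. Its ratio of L1 over DMSO was 2.22 (95% interval 2.14 to 2.31). HBA2 (ENSG00000188536, chromosome 16 from 172876 to 173710, plus strand) had 2798 and 5412 counts and an FPKM of 106 and 239, a ratio of 2.24 (2.14 to 2.35). The 2 intervals overlap, and the summed counts of both genes, which do not depend on how reads were split between them, went from 6726 to 12943, a ratio of 2.23 (2.17 to 2.30). HBA1 held 58.4% of the summed counts in DMSO (exact binomial 95% interval 57.2 to 59.6) and 58.2% in L1 (57.3 to 59.0). How the counting split reads between HBA1 and HBA2 was not tested, so their like ratios and steady share may depend on it.

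The other alpha-like genes did not move as a block. HBZ (ENSG00000130656, chromosome 16 from 152687 to 154503, plus strand), the embryonic zeta gene, gave 19 counts with DMSO against 57 with L1, which is 0.594 and 2.06 CPM. Its ratio was 3.48, but the interval from 2.04 to 6.19 was the widest among the globin genes. HBZ has no deposited FPKM value, since FPKM values were listed only for the 13924 genes above 1 CPM in both libraries. HBQ1 (ENSG00000086506, chromosome 16 from 180453 to 181181, plus strand), the theta gene, went from 385 counts with DMSO to 331 with L1, and its FPKM was 22.9 in each. The ratio of 0.997 (0.858 to 1.16) for HBQ1 includes 1 and lies below the intervals of HBA1 and HBA2. HBM (ENSG00000206177, chromosome 16 from 153892 to 166768, plus strand), the mu gene, had 0 counts in both libraries, which allows up to 3 counts, or 0.0937 CPM in DMSO and 0.109 in L1. The annotated exons of HBM share 205 bases with HBZ.

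The gamma genes made up most of the beta-like RNA, and their 2 copies had unlike ratios. HBG1 (ENSG00000213934, chromosome 11 from 5248079 to 5249859, minus strand), which encodes the A-gamma chain, had 5620 counts with DMSO and 16681 with L1, and its FPKM was 121 and 415. The ratio of HBG1 was 3.44 (95% interval 3.34 to 3.55). HBG2 (ENSG00000196565, chromosome 11 from 5253190 to 5505605, minus strand), which encodes the G-gamma chain, had 20283 and 20372 counts and an FPKM of 759 and 883. The ratio of HBG2 was 1.16 (1.14 to 1.19), so its counts were nearly equal and its level was higher only after scaling for the smaller L1 library. HBG1 held 21.7% of the counts of the pair in DMSO (21.2 to 22.2) and 45.0% in L1 (44.5 to 45.5).

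A further annotated gene takes reads from the same bases. ENSG00000284931 (chromosome 11 from 5248270 to 5254783, minus strand) is a protein-coding readthrough gene whose exons share 218 bases with HBG1 and 433 bases with HBG2, out of 651 in all. It gave 11295 counts with DMSO against 22951 with L1, and its FPKM of 546 and 1286 was below that of HBG2 in DMSO and above it in L1. Its ratio was 2.36 (2.30 to 2.41). With its counts added, the gamma locus went from 37198 to 60004 counts, a ratio of 1.87 (1.85 to 1.89), while HBG1 and HBG2 alone went from 25903 to 37053, a ratio of 1.66 (1.63 to 1.68). With all reads of ENSG00000284931 given to HBG1, its ratio was 2.72 (2.67 to 2.77), and with all of them given to HBG2, its ratio was 1.59 (1.57 to 1.61). In each case HBG1 had the higher ratio, but how the counting split reads between the 3 genes was not tested, and the gamma locus as a whole was higher in L1 by less than 2-fold.

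**Figure D2:**
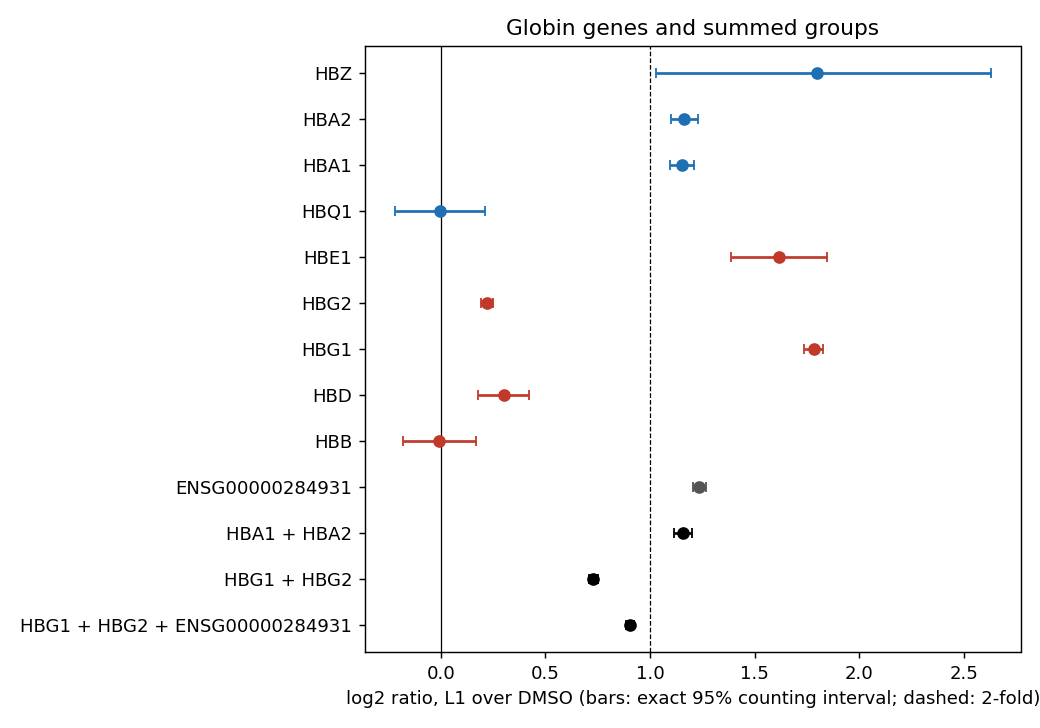
Log2 ratio of L1 over DMSO for each globin gene (blue for alpha-like, red for beta-like), the readthrough gene ENSG00000284931 (grey) and summed groups (black), with exact 95% counting intervals as bars and 2-fold as a dashed line. HBG1 at 1.78 and HBG2 at 0.22 lie far apart, and their sum with ENSG00000284931 lies between them at 0.90.

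The embryonic epsilon gene was among the genes with the highest ratios, whereas the adult beta and delta genes had ratios of 0.995 and 1.23. HBE1 (ENSG00000213931, chromosome 11 from 5268345 to 5505652, minus strand) went from 216 counts with DMSO to 571 with L1, and its FPKM was 7.07 and 21.7. The ratio of HBE1 was 3.06 (2.62 to 3.60). Its exons share 781 bases with ENSG00000239920, and with the 37 and 83 counts of that gene added the ratio was 3.00 (2.59 to 3.48). HBB (ENSG00000244734, chromosome 11 from 5225464 to 5229395, minus strand), the adult beta gene, had 586 counts with DMSO and 503 with L1, and its FPKM was 14.1 in each. Its ratio was 0.995 (0.881 to 1.12). HBD (ENSG00000223609, chromosome 11 from 5232678 to 5243657, minus strand), the delta gene, had 1088 and 1155 counts and an FPKM of 29.7 and 36.6, a ratio of 1.23 (1.13 to 1.34). The intervals of HBB and HBD lie below that of HBE1.

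Per length, gamma and alpha RNA were the main globin RNAs of HEL cells with or without L1. By deposited FPKM the order in DMSO was HBG2, HBA1, HBG1, HBA2, HBD, HBQ1, HBB and HBE1, and the counting intervals of neighbours did not overlap. In L1, HBG1 stood above HBA1, and HBE1 stood above HBB. HBQ1 at 22.9 (20.5 to 25.5) and HBE1 at 21.7 (19.9 to 23.5) were then the only neighbours that could not be told apart by counting error. HBG2 ranked 34 of 13924 genes by FPKM in DMSO and 27 in L1, while HBG1 went from rank 287 to 65 and HBE1 from 5808 to 2132. The FPKM of HBG1 carries a gene length of 1457 bases, worked out from its counts, against 835 bases for HBG2. Their coding sequences are equally long, so the FPKM of HBG1 stands lower against HBG2 than its counts do. Other places in the order also depend on the lengths used. By counts, HBG1 was above HBA1 in DMSO too (5620 against 3928), and HBB was above HBQ1 (586 against 385). HBE1 was below HBB in DMSO (216 against 586) and above it in L1 (571 against 503) by counts as well.

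The make-up of each cluster shifted with these ratios. Of the 7130 alpha-like counts in DMSO, HBA1 and HBA2 held 94.3% (93.8 to 94.9) and HBQ1 5.40% (4.89 to 5.95). Of the 13331 in L1, HBA1 and HBA2 held 97.1% (96.8 to 97.4) and HBQ1 2.48% (2.23 to 2.76). HBZ held 0.266% (0.161 to 0.416) in DMSO and 0.428% (0.324 to 0.554) in L1, with intervals that overlap. Of the 27793 beta-like counts in DMSO, HBG1 and HBG2 held 93.2% (92.9 to 93.5), HBB and HBD 6.02% (5.75 to 6.31) and HBE1 0.777% (0.677 to 0.888). Of the 39282 in L1, HBG1 and HBG2 held 94.3% (94.1 to 94.6), HBB and HBD 4.22% (4.02 to 4.42) and HBE1 1.45% (1.34 to 1.58). Within the beta-like genes HBG1 held 20.2% of the counts in DMSO and 42.5% in L1. With the counts of ENSG00000284931 in the total its share was 14.4% and 26.8%, and by FPKM without that gene 13.0% and 30.3%. The share of HBG2 was 73.0% and 51.9% by counts, 51.9% and 32.7% with ENSG00000284931 in the total, and 81.6% and 64.5% by FPKM. On each of these scales HBG1 held more and HBG2 less in L1. The intervals treat reads as independent molecules, which PCR copies are not.

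**Figure D3:**
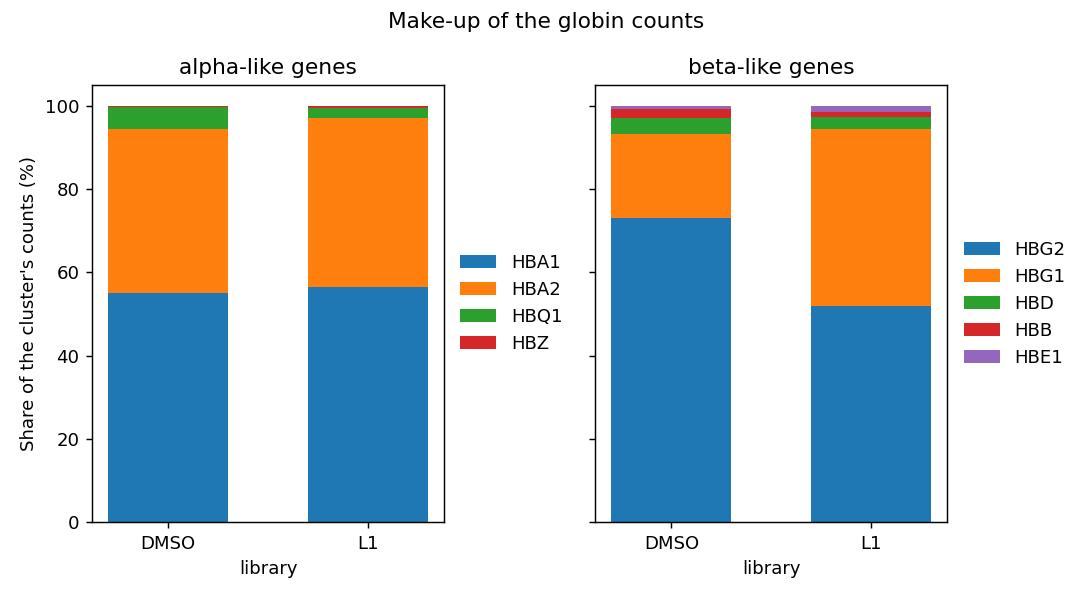
Share of each gene in the summed counts of the alpha-like genes (left) and of the beta-like genes (right), in percent, for the DMSO and the L1 library. HBA1 and HBA2 keep nearly the same proportion, while HBG1 goes from 20.2% to 42.5% of the beta-like counts and HBG2 from 73.0% to 51.9%, with ENSG00000284931 left out.

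The alpha-like genes as a group were higher in L1 by a larger factor than the beta-like genes. The summed alpha-like counts had a ratio of 2.17 (2.11 to 2.23) and the summed beta-like counts one of 1.64 (1.61 to 1.66), or 1.85 (1.82 to 1.87) with ENSG00000284931 added. Summed FPKM was 277 for alpha-like and 930 for beta-like genes in DMSO, and 590 and 1370 in L1. The alpha-like to beta-like ratio of FPKM was 0.298 in DMSO and 0.431 in L1. With ENSG00000284931 among the beta-like genes it was 0.188 and 0.222, a smaller difference in the same direction.

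Some genes within or nearest to the globin clusters were higher in L1, and others had near-equal levels in both libraries. Within the beta-like cluster, BGLT3, a noncoding RNA gene between HBBP1 and HBG1, gave 139 counts with DMSO against 247 with L1, a ratio of 2.06 (1.67 to 2.55). The pseudogene HBBP1, which lies within the annotated span of HBD and shares 88 exon bases with it, had 2350 and 2111 counts and a ratio of 1.04 (0.981 to 1.10). HBE1, HBG1 and BGLT3 thus had ratios over 2 and HBG2, which lies among them, did not, while HBBP1, HBD and HBB, which follow them on the chromosome, had ratios between 0.995 and 1.23. None of the 15 olfactory receptor genes and pseudogenes that GENCODE places between the outermost ends of the beta-like genes had more than 3 counts in a library.

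In the alpha-like cluster the pseudogenes HBZP1 and HBAP1 had no counts. The flanking genes, apart from RHBDF1, were near a log2 ratio of 0. NPRL3, whose introns hold the main enhancers of the alpha-like genes, had 2359 and 2109 counts and a log2 ratio of 0.05. MPG had a log2 ratio of -0.14, LUC7L of -0.06, FAM234A of -0.24 and AXIN1 of -0.18. RHBDF1 had only 3 counts with DMSO and 12 with L1, a log2 ratio of 2.21 with an interval from 0.32 to 4.68. Outside the beta-like cluster, the nearest protein-coding genes with at least 10 counts in a library were far from its outermost annotated ends. TRIM68 (log2 ratio -0.16), TRIM21 (0.18) and RRM1 (-0.32) lay 617205, 831768 and 1086588 bases away on 1 side. On the other side TRIM6, TRIM34 and TRIM5 lay 90457, 114112 and 157905 bases away, and TRIM5 had a log2 ratio of 0.11. TRIM34 had 113 and 184 counts and a log2 ratio of 0.92 (0.57 to 1.27), and TRIM6 had 19 and 38 counts and a log2 ratio of 1.21 (0.38 to 2.09).

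**Figure D4:**
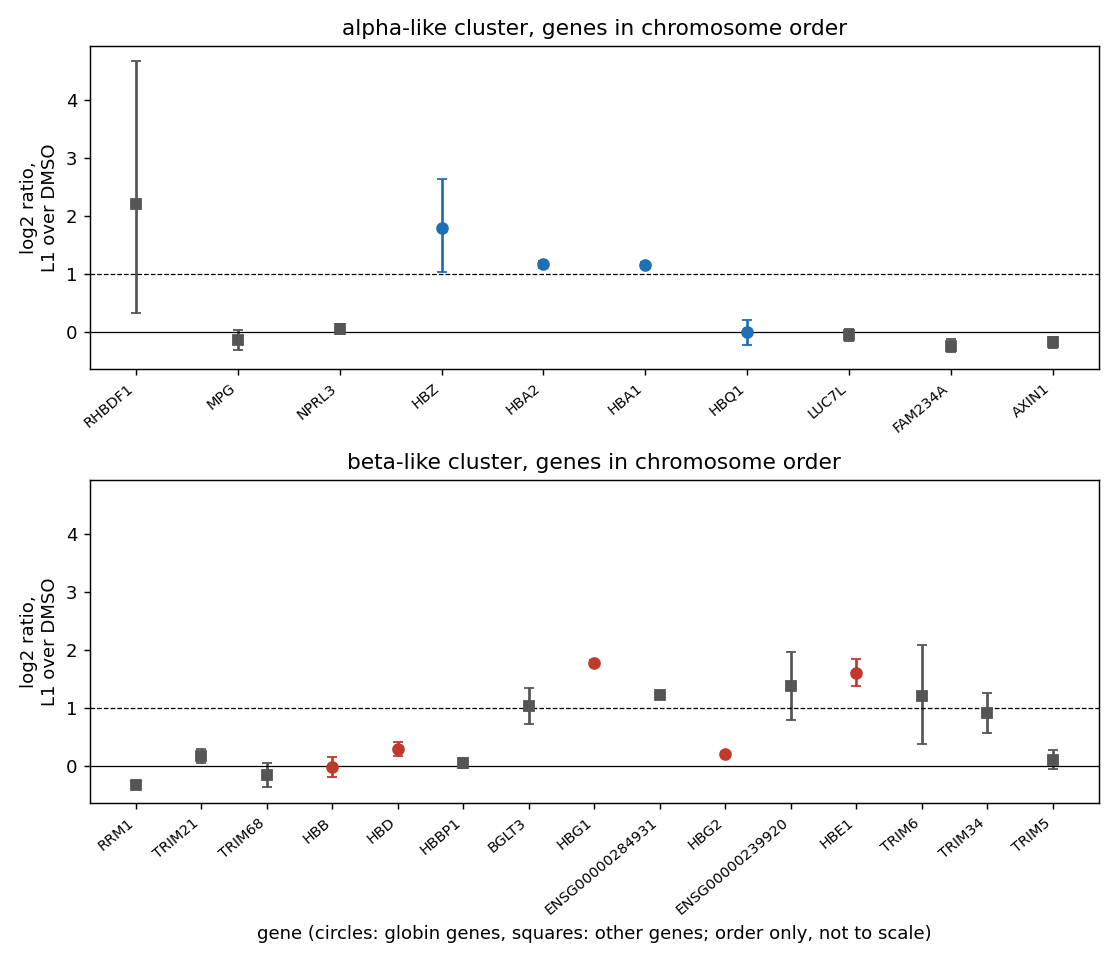
Log2 ratio of L1 over DMSO, with exact 95% counting intervals, for the globin genes (circles) and other genes with at least 10 counts in a library (squares) of the alpha-like and beta-like regions, in chromosome order and not to scale. In the beta-like cluster the values from BGLT3 to HBE1 lie at or above 1, apart from HBG2 at 0.22, and those from HBB to HBBP1 lie between -0.01 and 0.30.

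Genes listed as activators of globin transcription, or as linked to them, had log2 ratios on both sides of 0. Of the 15 genes listed, 6 had a log2 ratio above 0. At the 2-fold threshold 0 were higher or lower, and their median log2 ratio was -0.08. Over all genes with at least 10 counts 7.12% were called higher and 4.83% lower, with a median of -0.0040, so a count of 0 in a list of this size is near the background and says nothing particular about activators. GATA1, the master regulator of erythroid genes, went from 6469 counts with DMSO to 5923 with L1, a log2 ratio of 0.09. KLF1, which activates adult beta-globin, had 3519 and 2864 counts and a log2 ratio of -0.08. ZFPM1, the GATA1 cofactor also called FOG1, had a log2 ratio of -0.68, and MAFK, a partner of NFE2, of -0.76. LDB2, a relative of the looping factor LDB1, had 252 and 341 counts and a log2 ratio of 0.65.

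Genes that silence the fetal and embryonic globins, or that take part in the switch to adult globin, also had log2 ratios on both sides of 0. Of 31 genes listed, 30 had enough counts, 1 was at least 2-fold higher and 0 were lower, and the median log2 ratio was -0.03. These counts are also near the all-gene shares of 7.12% higher and 4.83% lower. BCL11A, the main repressor of the gamma genes, had 741 counts with DMSO and 619 with L1, a log2 ratio of -0.05 (-0.20 to 0.11). ZBTB7A, a further gamma repressor, had 1133 and 882 counts and a log2 ratio of -0.15, and MYB 5180 and 3556 counts and one of -0.33. LIN28B, an RNA-binding protein of the fetal programme, had 4918 and 4938 counts and a log2 ratio of 0.22. The gene past 2-fold was NR2C2, which encodes the orphan receptor TR4 that binds repeats in embryonic and fetal globin promoters, with 628 counts under DMSO and 1521 under L1, a log2 ratio of 1.49 (1.35 to 1.63). NR2F2, also called COUP-TFII, had a log2 ratio of 0.73, and HIC2, a repressor of BCL11A, of -0.68.

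Heme synthesis and haemoglobin assembly showed no common direction. Of 21 genes, 20 had enough counts, 1 was called higher and 1 lower, and the median log2 ratio was 0.00021. That is close to the all-gene shares of 7.12% and 4.83%, so the calls are no result about heme genes as a list. AHSP, the chaperone of free alpha chains, had 0 counts in both libraries. ALAS2, the erythroid enzyme for the first step of heme synthesis, gave 655 counts with DMSO against 1108 with L1, a log2 ratio of 0.97 (0.83 to 1.11). HMOX1, which breaks heme down, had 58 and 176 counts and a log2 ratio of 1.81 (1.38 to 2.27). TFRC, the transferrin receptor, had 17721 and 6420 counts and a log2 ratio of -1.25 (-1.29 to -1.21).

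Markers of the erythroid lineage were expressed, and so were those of the megakaryocyte lineage. Of 24 erythroid markers, 22 had enough counts, 1 was at least 2-fold higher and 0 lower, with a median log2 ratio of 0.11. The all-gene shares of 7.12% higher and 4.83% lower are the background for this and the next 2 lists. The summed level of the erythroid markers was 2608 CPM in DMSO and 2688 in L1. The erythroid markers had log2 ratios on both sides of 0. Of the 22 with enough counts, 13 were above 0, and the others went down to -0.36. GYPB and GYPE, glycophorin genes with closely related sequences, had log2 ratios of 1.10 and 0.81. SLC4A1, the anion exchanger of red cells, had 0 counts with DMSO and 8 with L1, too few to be among the 22. Of 20 megakaryocyte and platelet markers, 19 had enough counts, 1 was called higher (THBS1, with 45 and 89 counts, which was named after its values were seen) and 1 lower. Their median log2 ratio was -0.37, and their summed level was 3483 CPM in DMSO and 3189 in L1. ITGA2B had 40168 and 35288 counts and a log2 ratio of 0.03, GP9 had one of -0.37, ITGB3 of -0.73, TREML1 of -0.89 and GP1BB of -1.08. Of 16 monocyte and granulocyte markers, 6 had enough counts, 0 were called higher and 2 lower, and 5 were at 0 in both libraries. Their summed level was 58.2 CPM in DMSO and 37.0 in L1. MPO was at 0 in both libraries, LYZ had a log2 ratio of -0.20, ITGAM of -0.12 and VCAN of -1.52. The part of these markers in the globin values was not tested.

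**Figure D5:**
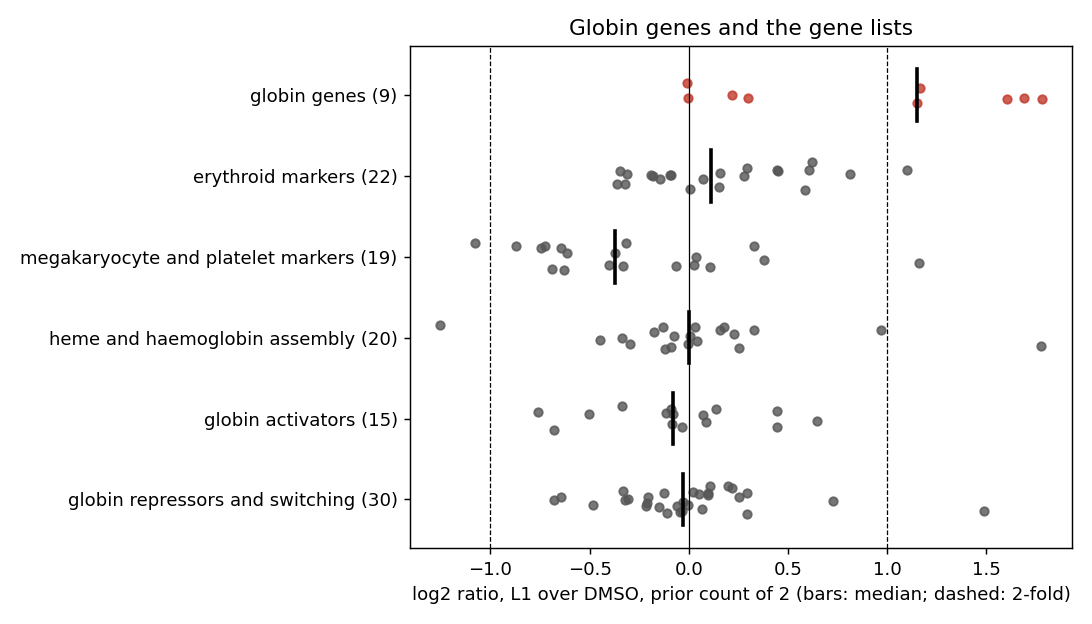
Log2 ratio of L1 over DMSO with a prior count of 2 for the 9 globin genes with enough counts (red) and for the genes of 5 lists (grey), with the median of each as a black bar and 2-fold as dashed lines. The globin median of 1.15 lies to the right of the medians of the 5 lists, which run from -0.37 to 0.11. Over the 8 globin genes with at least 100 counts the median was 0.73.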

How the data were processed

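Per the submitters' processing notes, fastp, HISAT2 (v2.1.0), StringTie and the hg38 build were used. The authors deposited raw read counts per Ensembl gene, without normalization, and FPKM values for 13924 genes. The counting program, the annotation and the use of strand are not given in the sources used here. Libraries were scaled by TMM (edgeR 4.0.16, R 4.3.3). Total counts, upper quartile and DESeq2 1.42.0 size factors served as alternative scalings, beside other thresholds, minimum counts, prior counts and the FPKM values. The effective library of DMSO was 1.16 times that of L1. Intervals were computed with Python 3.11.15 and scipy 1.17.1, and cover counting error only. No column of another sample was present. Positions, exons and transcripts are those of GENCODE release 29 (GRCh38), and 58254 of the 61806 gene identifiers were found there. Gene symbols were matched through a table of Ensembl identifiers, and all genes of the lists were found.

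The 10 globin genes and the 7 gene lists were chosen with earlier results of these data known. Besides the globin genes, the genes named are those next to them, 13 preset regulators and markers, and in each list the 3 genes farthest from a log2 ratio of 0 with at least 100 counts in a library, except for 1 gene that is not reported here. The labels do not say that the libraries came from more than 1 culture each. The functions were tested on simulated data.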

Additional observations from a re-analysis of the deposited data

How the results depend on the processing

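No paired analysis was possible because DMSO and L1 were each sequenced once. The scalings shifted all log2 ratios by up to 0.05. With total counts the log2 ratio was 1.83 for HBG1, 0.27 for HBG2, 1.21 for HBA1 and HBA2 summed, 0.78 for HBG1 and HBG2 summed, 1.17 for the alpha-like and 0.76 for the beta-like genes. With DESeq2 size factors it was 0.19 for HBG2, 0.70 for HBG1 and HBG2 summed and 0.68 for the beta-like genes, and with the upper quartile 0.26, 0.77 and 0.75. Summed FPKM, which weights genes by length, gave 0.56 for HBG1 and HBG2 and 0.56 for the beta-like genes. The other 38 log2 ratios of globin genes and sums stayed within their counting interval. They cover these alternatives and, for HBE1, the addition of ENSG00000239920 after the data were seen. For each of the 8 globin genes with an FPKM value, the FPKM ratio was the same as that of the TMM-scaled counts. For single genes the FPKM values are thus no separate check. The 42 medians of gene lists stayed within the interval of the median over members.

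Chosen after the data were seen, the addition of ENSG00000284931 gave 1.44 for HBG1, 0.67 for HBG2, 0.90 for both summed and 0.88 for the beta-like genes, and the addition of HBBP1 gave 0.14 for HBD. The alpha-like to beta-like ratio on counts was 0.257 in DMSO and 0.339 in L1, and with ENSG00000284931 added 0.188 and 0.222.

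The 5 globin genes called higher became 3 at 3-fold, 3 with each near-identical pair counted as 1 gene, and 3 with ENSG00000284931 in that sum too. None was called lower under any of these alternatives. Over all genes, 1290 higher and 876 lower became 2506 and 2065 at 1.5-fold, 566 and 345 at 3-fold, 547 and 350 with a whole interval past 2-fold, 3544 and 1811 with no minimum count, 694 and 491 with 10 counts in both libraries, 387 and 361 with 100 counts in a library, 199 and 153 on FPKM with a pseudocount of 1, and 348 and 298 with a pseudocount of 0.1. Among the gene lists, the 1 heme gene called higher became 2 with total counts and with the upper quartile. With at least 100 counts in a library, the 1 megakaryocyte and platelet marker called higher became 0. At that depth the 2 monocyte and granulocyte markers called lower became 1. The depth of HBZ, HBE1 and HBQ1 limits their precision.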

Other observations

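The globin genes that lie outside both clusters were at or near 0 in HEL cells. Myoglobin (MB), cytoglobin (CYGB) and neuroglobin (NGB) had 0 counts in both libraries, and androglobin (ADGB) had 1 count in DMSO and 4 in L1.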
